A study of Homo sapiens with 12 samples.

Results

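The core pluripotency factors are the genes whose products hold human embryonic stem cells (hESCs) undifferentiated and able to form all embryonic lineages. The members were taken by symbol: POU5F1, NANOG, SOX2, SALL4, PRDM14, UTF1, DPPA4, ZFP42, LIN28A and LIN28B, 10 of the 28278 genes in the table of RNA-sequencing counts. All 10 were found and all 10 passed the filter on low counts, among 15916 genes tested. The libraries came from WA26 cells, an established hESC line that was grown without feeder cells on Matrigel in E8 medium. Every treated library analysed here was labelled as knockout (KO). The groups, of 2 libraries each, were wild type (WT) cells at normal O2, UBQLN1 KO cells at normal O2, UBQLN1 KO cells at 5% O2 and UBQLN1 KO cells given NAC, the antioxidant N-acetylcysteine. UBQLN1 encodes a shuttle factor that carries ubiquitinated proteins to the proteasome, and it was disrupted with CRISPR/Cas9. The study picked 2 clones of each genotype, but neither the labels nor the methods tie a clone to a library, so the p-values measure the spread between libraries that may be clones, cultures or technical repeats. The labels name no vehicle for the untreated cells. The study's scheme shows 10 passages with NAC or low O2, and DMSO as the control. Its text gives a shorter culture at 5% O2 for RNA sequencing. Vehicle and time in culture may therefore differ along with treatment, and these cannot be told apart. The WT libraries at 5% O2 and with NAC were not analysed here, so no response of WT cells could be set beside that of KO cells.

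OCT4 (the product of POU5F1) and SOX2 bind DNA side by side and, with NANOG, drive each other's genes and those of the undifferentiated state, while holding lineage genes off. SALL4 and PRDM14 are zinc-finger factors that work with repressor complexes, UTF1 and DPPA4 sit on chromatin, and ZFP42 (REX1) is a zinc-finger marker that is quickly lost on differentiation. LIN28A and LIN28B are RNA-binding proteins that block the maturation of let-7 miRNAs, and so guard transcripts that let-7 would otherwise repress.

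RefSeq promoter sequences, from 250 bases before to 50 bases after the start, were matched for 6 of the 10 genes on GRCh38.p14: NANOG, SOX2, UTF1, DPPA4, ZFP42 and LIN28B. Both strands were searched for TTTGCAT, part of the octamer that OCT4 binds, and ACAATG, a core that SOX factors bind. The octamer part stood in 4.46% of 35116 promoters and the SOX core in 10.78%. The first pair below is shown for the OCT4 and SOX2 letters and the other 3 for the members that moved most with NAC, all 5′ to 3′ on the strand of the gene, with the motif letters in capitals.
NANOG: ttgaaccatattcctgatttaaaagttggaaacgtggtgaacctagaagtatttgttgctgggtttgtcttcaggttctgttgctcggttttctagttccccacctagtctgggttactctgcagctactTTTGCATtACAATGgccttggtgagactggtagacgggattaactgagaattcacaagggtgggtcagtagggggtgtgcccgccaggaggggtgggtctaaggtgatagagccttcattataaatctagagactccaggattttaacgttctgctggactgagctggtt
SOX2: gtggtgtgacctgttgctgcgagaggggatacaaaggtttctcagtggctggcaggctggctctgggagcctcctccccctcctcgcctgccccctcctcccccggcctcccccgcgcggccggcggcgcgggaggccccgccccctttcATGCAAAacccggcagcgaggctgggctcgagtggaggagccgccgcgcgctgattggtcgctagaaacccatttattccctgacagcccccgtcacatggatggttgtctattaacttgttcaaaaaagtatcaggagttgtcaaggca
DPPA4: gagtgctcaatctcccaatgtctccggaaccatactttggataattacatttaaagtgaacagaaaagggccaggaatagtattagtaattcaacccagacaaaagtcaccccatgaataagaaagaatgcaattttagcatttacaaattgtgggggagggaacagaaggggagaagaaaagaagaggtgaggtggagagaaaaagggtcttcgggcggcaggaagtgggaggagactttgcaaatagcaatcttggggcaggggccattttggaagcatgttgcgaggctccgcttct
ZFP42: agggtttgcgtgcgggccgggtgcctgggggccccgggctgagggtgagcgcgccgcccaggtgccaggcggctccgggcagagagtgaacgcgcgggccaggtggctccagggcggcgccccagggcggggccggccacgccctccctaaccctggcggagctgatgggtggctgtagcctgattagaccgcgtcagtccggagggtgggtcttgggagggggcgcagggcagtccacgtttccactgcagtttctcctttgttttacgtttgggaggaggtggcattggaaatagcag
UTF1: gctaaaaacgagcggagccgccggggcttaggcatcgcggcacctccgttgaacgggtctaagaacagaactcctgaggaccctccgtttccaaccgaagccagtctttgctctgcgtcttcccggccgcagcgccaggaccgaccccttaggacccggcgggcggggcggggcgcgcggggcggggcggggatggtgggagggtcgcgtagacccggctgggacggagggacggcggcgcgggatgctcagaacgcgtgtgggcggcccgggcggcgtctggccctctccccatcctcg
The NANOG window (chr12:7789152-7789451, plus strand) held the octamer part from position -120 and the SOX core from position -112, with 1 base between them. This arrangement was found in 3 of the 35116 promoters (0.009%). The SOX2 window (chr3:181711675-181711974, plus strand) held the octamer part on the opposite strand, from position -100, and no SOX core. The windows of DPPA4 (chr3:109337497-109337796, minus strand), ZFP42 (chr4:187995521-187995820, plus strand) and UTF1 (chr10:133229967-133230266, plus strand) held neither set of letters. LIN28B had 2 windows, of which 1 held the SOX core, at position -140. The windows differed in base composition: UTF1 held 39 CpG dinucleotides and a GC content of 71.7%, ZFP42 held 24 and 69.3%, and SOX2 held 20 and 63.3%, against medians of 14 and 58.7% over all promoters. DPPA4 and NANOG held 5 CpG each, with a GC content of 45.3% and 46.7%.

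Libraries held 31236968 to 41639350 counts, and levels are given as CPM, counts scaled to a common library total after TMM normalization. UBQLN1, the targeted gene, held 7382 and 7591 counts in WT and 1476 to 2392 counts in the 6 KO libraries. The members were well covered in every library, from 2500 counts (PRDM14) to 71935 counts (LIN28A), and summed to 3795.6 to 4599.3 CPM. Summed over their lists, markers of the germ layers were lower. The endoderm list summed to 12.4 to 17.8 CPM, with 3 of 15 genes at 0 in all libraries. The mesoderm list summed to 71.0 to 134 CPM and the ectoderm list to 236 to 681 CPM. Not every single marker was low: NES, of the ectoderm list, was at 451 and 422 CPM in KO cells at normal O2. In the same libraries POU5F1 was at 143 and 148 CPM, SOX2 at 286 and 300 CPM and LIN28A at 1456 and 1369 CPM. The first NAC library stood apart. It held 1809 counts of DCN, 1114 of COL3A1, 148 of LUM and 86 of FAP, genes of fibroblasts, where the other 7 libraries held 0 of each except 8 counts of COL3A1 in a WT library. The 18 mesenchymal and fibroblast markers summed to 1228.9 CPM in it and to 590 to 706 CPM elsewhere, and the results with NAC are therefore also given without it.

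The members differed in level from one another, and their order depended on the transcript taken. Per kilobase of the median annotated transcript, WT cells held 493 ± 0.124 CPM of DPPA4 (SD, n = 2), 371 ± 28.4 of LIN28A and a mean of 328 of UTF1. NANOG was at 155 ± 0.926 CPM per kilobase. POU5F1 (129 ± 25.4), SOX2 (129 ± 5.23) and ZFP42 (122 ± 8.25) did not differ beyond their spread. The place of POU5F1 is uncertain, because its copies share its sequence, as described below. SALL4 was at 96.2 ± 5.59, PRDM14 at 68.9 ± 0.595 and LIN28B at 67.3 ± 9.35 CPM per kilobase, the last pair within their spread. Per kilobase of the canonical transcript LIN28A led with 347 CPM and NANOG came last with 26.0 CPM, since its canonical transcript of 5182 bases is longer than its median one of 870 bases.

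Loss of UBQLN1 left all 10 factors without a call at normal O2. Called here means a Benjamini-Hochberg adjusted p under 0.05 over all tested genes in the quasi-likelihood test of edgeR, and 1.34% of genes met this as higher and 0.622% as lower in KO. At an unadjusted p under 0.05, 2 members passed (NANOG and PRDM14), and DESeq2 also called 0 of 10. The share of all tested genes at that unadjusted threshold is not given here, so the 2 members cannot be set beside it. By the study's rule, an absolute log2 fold change over 1 with an unadjusted p under 0.05, 2.57% of genes passed and 0 members. Log2 fold changes of the members ran from -0.23 (POU5F1) to 0.30 (UTF1), with a median of 0.03 against -0.0024 over all tested genes, and 6 of 10 were positive. The 95% intervals of all 10 lay between -0.63 and 0.65, so a change of 2-fold lay outside each of them, while smaller changes remained possible.

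The core triad showed this in each library. NANOG was at 135 and 134 CPM in the WT libraries and at 155 and 154 CPM in the KO libraries. The KO libraries were both higher, at a log2 fold change of 0.20 (SE 0.09) with an unadjusted p of 0.049 and an adjusted p of 0.28 from edgeR. SOX2 was at 334 and 315 CPM in WT and at 286 and 300 CPM in KO. Its log2 fold change was -0.15 (95% interval -0.37 to 0.07). POU5F1 was at 147 and 195 CPM in WT and at 143 and 148 CPM in KO, and the second WT library stood above the other 3.

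Among the chromatin and zinc-finger factors, PRDM14 was at 93.3 and 92.2 CPM in WT and at 109 CPM in both KO libraries. Its log2 fold change of 0.24 (SE 0.10) had an unadjusted p of 0.038 and an adjusted p of 0.25 from edgeR. DPPA4 was at 765 and 766 CPM in WT and at 683 and 678 CPM in KO, a log2 fold change of -0.17 (95% interval -0.34 to 0.01). UTF1 was at 419 and 376 CPM in WT and at 436 and 543 CPM in KO. SALL4 (192 and 177 against 197 and 184 CPM), ZFP42 (288 and 317 against 285 and 285 CPM), LIN28A (1305 and 1454 against 1456 and 1369 CPM) and LIN28B (195 and 160 against 185 and 179 CPM) had log2 fold changes of 0.05, -0.09, 0.03 and 0.03. The WT and KO libraries did not overlap for NANOG, SOX2, PRDM14, DPPA4, UTF1 and ZFP42, the last by 288 against 285 CPM. The share of all tested genes without such an overlap was not counted, so this is a description and no result about the members.

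**Figure D1:**
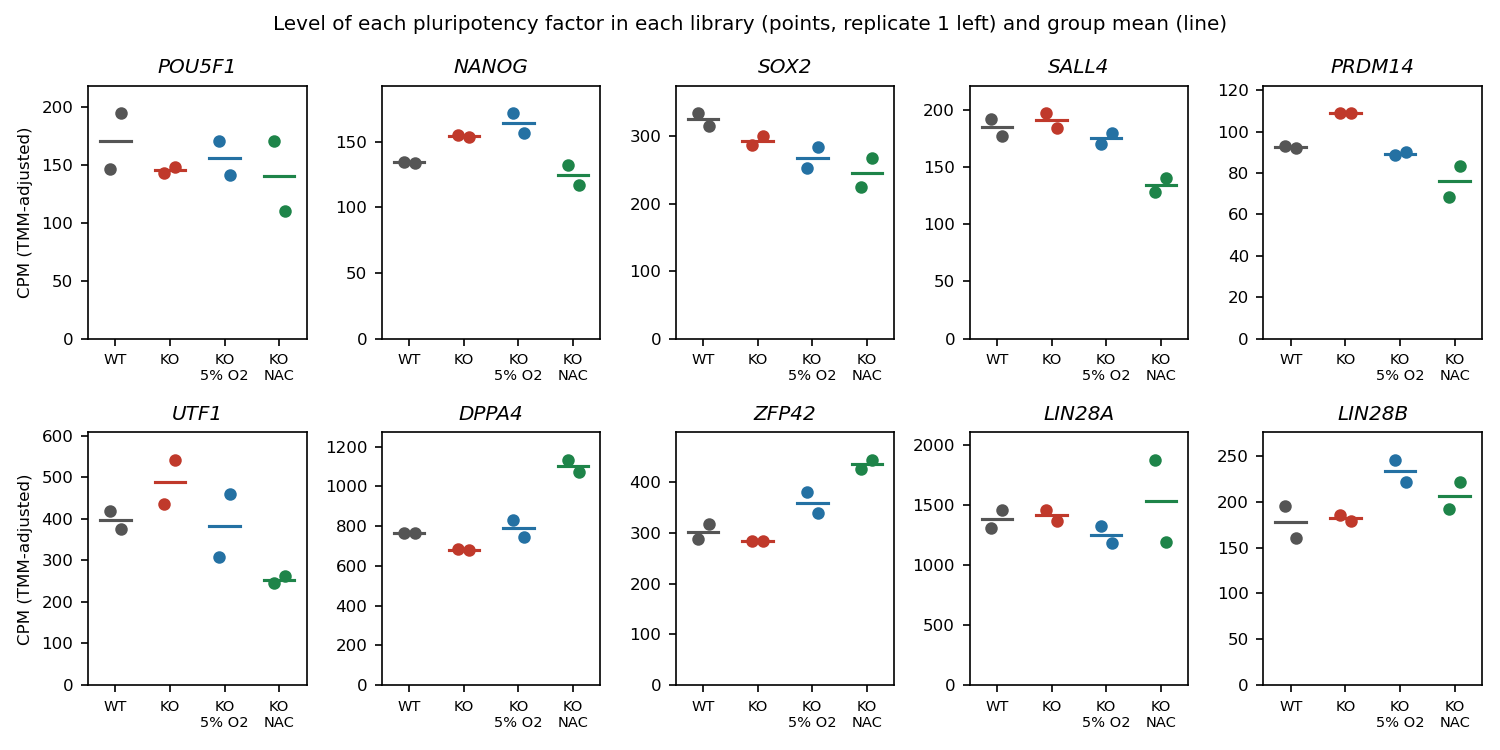
Each panel plots 1 factor, with TMM-adjusted CPM on a linear axis from 0 and the 4 groups on the x axis. Points are libraries (replicate 1 left) and lines are group means of 2 libraries. DPPA4 and ZFP42 are highest and SALL4, PRDM14, UTF1 and NANOG lowest in both NAC libraries, whereas the NAC libraries lie far apart for LIN28A (1878 and 1189 CPM) and POU5F1 (171 and 110 CPM).

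NAC moved 6 of the 10 factors in KO cells, and not in 1 direction. DPPA4 and ZFP42 rose, while UTF1, PRDM14, SALL4 and NANOG fell, and SOX2, LIN28A, LIN28B and POU5F1 were not called. Much of the transcriptome was called in this comparison: 23.8% of genes were higher and 20.8% lower, beside which stand 2 and 4 of the 10 members. The median log2 fold change was -0.15 over the members and 0.02 over all tested genes. By the study's rule 9.02% of genes and 0 members passed, since no member changed by 2-fold.

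DPPA4, a chromatin protein that keeps developmental promoters open with DPPA2, was at 683 and 678 CPM in untreated KO cells and at 1135 and 1072 CPM with NAC. Both NAC libraries were above the 6 others, at a log2 fold change of 0.70 (SE 0.08, adjusted p = 4.55e-05 from edgeR). ZFP42 was at 285 CPM in both untreated libraries and at 427 and 445 CPM with NAC, again above every other library. It rose by 0.61 on the log2 scale (SE 0.09, adjusted p = 0.00017). 

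UTF1, a chromatin factor of undifferentiated cells, was at 436 and 543 CPM in untreated KO cells and at 245 and 262 CPM with NAC. It fell by 0.95 on the log2 scale (SE 0.16, adjusted p = 0.00054 from edgeR), the largest change of a member, and both NAC libraries were below the 6 others. PRDM14 was at 109 CPM in both untreated libraries and at 68.4 and 83.5 CPM with NAC, a log2 fold change of -0.53 (SE 0.10, adjusted p = 0.0013). SALL4 was at 197 and 184 CPM without and at 128 and 140 CPM with NAC, a log2 fold change of -0.51 (SE 0.09, adjusted p = 0.00072). For PRDM14 and SALL4, too, the NAC libraries were the 2 lowest of the 8.

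NANOG was at 155 and 154 CPM in untreated KO cells and at 132 and 117 CPM with NAC. Its NAC libraries were the lowest of all, and the log2 fold change of -0.31 (SE 0.09) had an adjusted p of 0.014 from edgeR. This call was lost when either untreated KO library or the second NAC library was left out, fits that leave 1 group without a replicate. The log2 fold change was -0.31 and -0.32 without the first and the second untreated KO library, and -0.23 without the second NAC library. SOX2 was at 286 and 300 CPM without and at 224 and 267 CPM with NAC, a log2 fold change of -0.25 (95% interval -0.47 to -0.04) with an adjusted p of 0.057. It was called under other normalizations and with DESeq2 (adjusted p = 0.020). In edgeR it was not called with a trend on transcript length and GC content removed (-0.15, adjusted p = 0.29). Nor was it called with only the 4 libraries compared (-0.28, adjusted p = 0.072). Without the first NAC library its log2 fold change was -0.14, and it was not called.

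For POU5F1 and LIN28A the NAC libraries disagreed. LIN28A was at 1456 and 1369 CPM in untreated KO cells, and at 1878 CPM in the first and 1189 CPM in the second NAC library, 1 above and 1 below both. POU5F1 was at 143 and 148 CPM without NAC and at 171 and 110 CPM with it. Without the first NAC library, POU5F1 had a log2 fold change of -0.40 and LIN28A one of -0.25. Without the second, the values were 0.24 and 0.41. No direction can therefore be given for either gene. The part of the fibroblast transcripts in these values was not tested. LIN28B was at 185 and 179 CPM without and at 192 and 221 CPM with NAC, a log2 fold change of 0.19 (95% interval -0.06 to 0.43).

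The first NAC library was the one with fibroblast transcripts. Without it, the NAC group holds no replicate, so its spread is not measured and effect sizes alone are given. DPPA4 (0.65), ZFP42 (0.64), UTF1 (-0.91), SALL4 (-0.44), NANOG (-0.41) and PRDM14 (-0.39) then kept their log2 fold changes in direction. In bulk RNA, fewer cells that express a gene and less RNA of it per cell cannot be told apart.

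**Figure D2:**
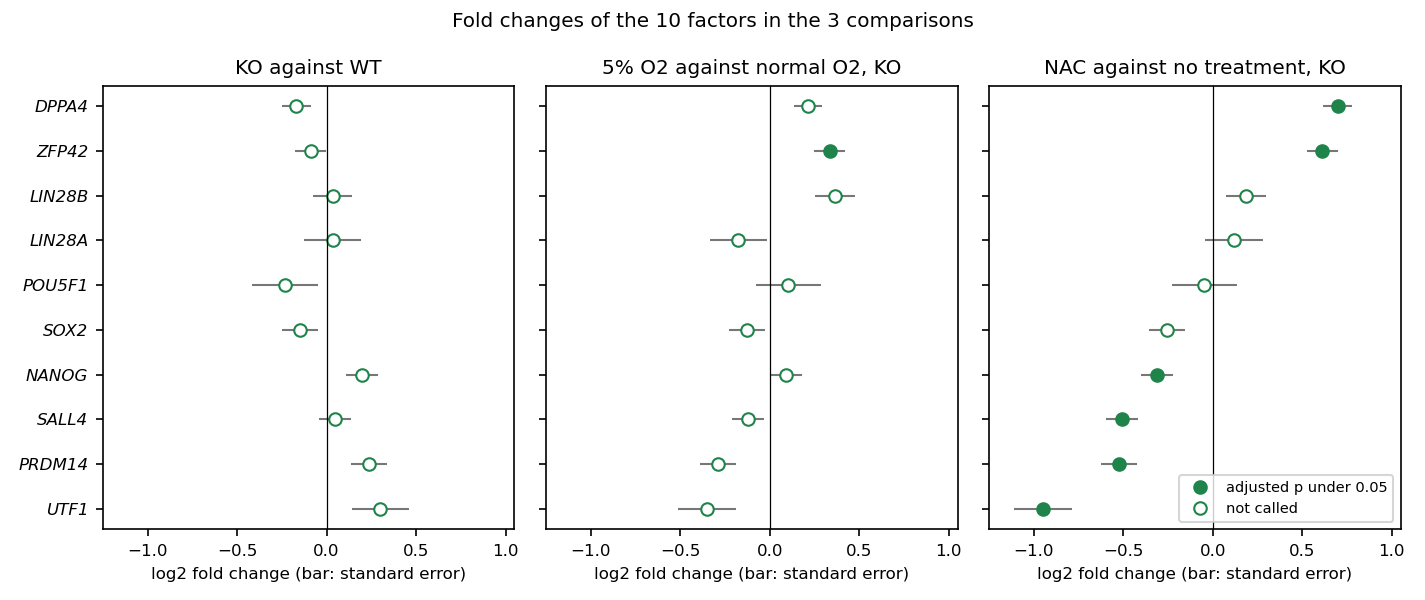
Log2 fold changes of the 10 factors (x axis) with standard errors as bars are plotted for the 3 comparisons, 2 libraries against 2 in each, with filled points for an adjusted p under 0.05. The left panel holds 0 filled points, the middle panel 1 (ZFP42) and the right panel 6, from -0.95 for UTF1 to 0.70 for DPPA4.

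The changes with NAC followed the base composition of the transcripts over the whole transcriptome. The median log2 fold change of all tested genes fell from 0.51 at a transcript GC content of 35 to 40% to -0.53 at 70 to 80%. At 5% O2 in KO the medians of the same bins fell too, from 0.15 to -0.20. In KO against WT they were -0.07 and 0.10. DPPA4 (43.2% GC) and ZFP42 (43.1%) lay among the GC-poor transcripts, whose bin from 40 to 45% had a median of 0.35. UTF1, at 76.9% GC, lay in the bin with the median of -0.53, and PRDM14, at 60.9%, in a bin with -0.40. NANOG (49.0%) and SALL4 (53.7%) fell in bins with medians of 0.14 and -0.10, and both lay close to the lower quartiles there, -0.30 and -0.52. LIN28B, with 42.7% GC, lay below the median of its bin.

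With a smooth trend on the length and GC content of transcripts removed from each library, the same 6 members were called with NAC, in the same directions. Before removal, 23.8% of all tested genes were higher and 20.8% lower. The share after removal is not given here, so this count of members is a description only. Most of the values moved toward 0: DPPA4 from 0.70 to 0.27 (adjusted p = 0.0081 from edgeR), ZFP42 from 0.61 to 0.36 (adjusted p = 0.0057), UTF1 from -0.95 to -0.36 (adjusted p = 0.045), PRDM14 from -0.53 to -0.29 (adjusted p = 0.045) and SALL4 from -0.51 to -0.39 (adjusted p = 0.0070). NANOG moved the other way, from -0.31 to -0.57 (adjusted p = 0.00036), and became the member with the largest change. LIN28B turned from 0.19 to -0.06 and was not called in either case. Whether the trend comes from the cells or from the libraries was not tested.

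**Figure D3:**
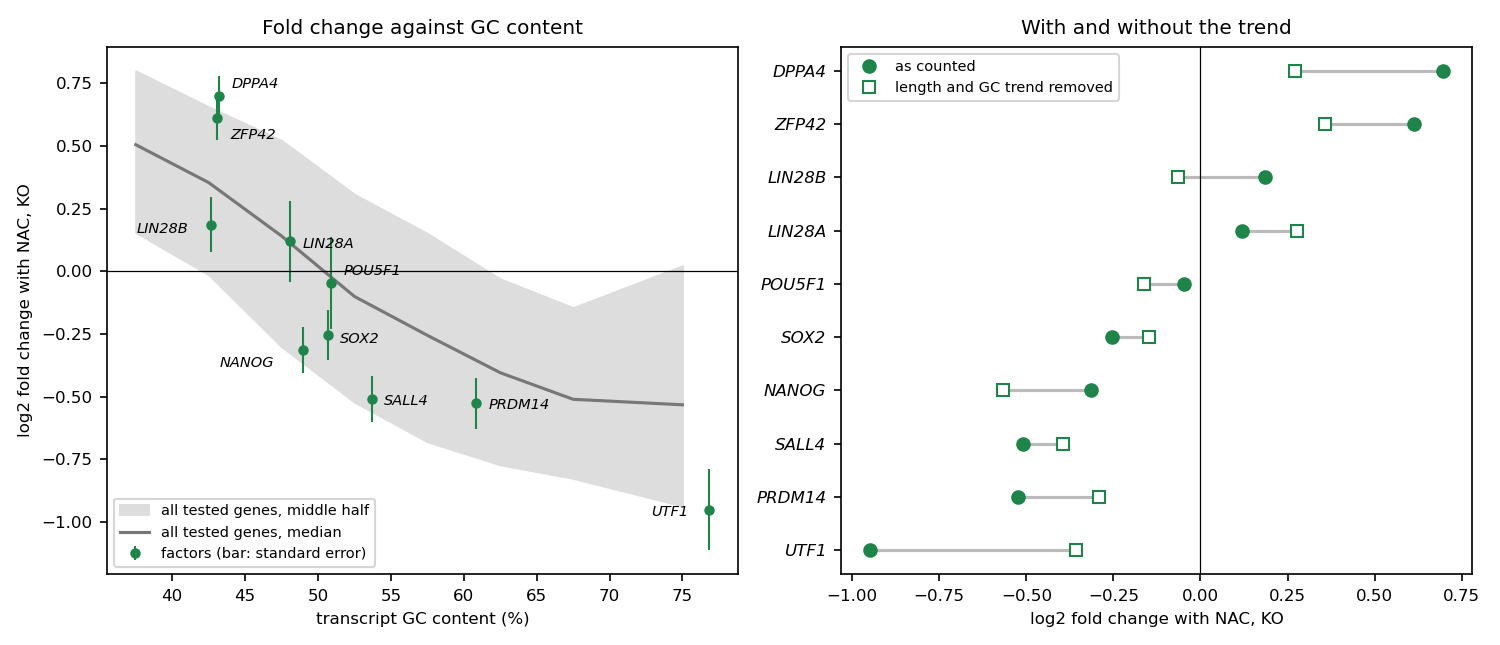
The left panel plots the log2 fold change with NAC in KO cells against transcript GC content, with the median (line) and middle 50% (shade) of all tested genes in bins and the 10 factors as points with standard errors. The right panel gives each factor's log2 fold change before (filled) and after (open) the length and GC trend was removed: UTF1 moves from -0.95 to -0.36 and NANOG from -0.31 to -0.57.

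At 5% O2, 1 of the 10 factors was called in KO cells. ZFP42 was at 285 CPM in both libraries at normal O2 and at 380 and 339 CPM at 5% O2, a log2 fold change of 0.33 (SE 0.09, adjusted p = 0.040 from edgeR). In this comparison 3.68% of genes were called higher and 4.13% lower, and by the study's rule 2.02% of genes and 0 members passed. The call was lost when any 1 of the WT, untreated KO or 5% O2 libraries was left out, at log2 fold changes from 0.25 to 0.415. It was also lost when the length and GC trend was removed (0.26, adjusted p = 0.093 from edgeR). The direction was unchanged in each case.

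Other members moved at an unadjusted level or lay apart without a call. LIN28B was at 185 and 179 CPM at normal O2 and at 246 and 221 CPM at 5% O2, its 2 highest libraries, with a log2 fold change of 0.36 (SE 0.11, adjusted p = 0.065 from edgeR). PRDM14 was at 109 CPM in both libraries at normal O2 and at 88.7 and 90.1 CPM at 5% O2, a log2 fold change of -0.29 (SE 0.10, adjusted p = 0.099). Both were called when a NAC library was left out of the shared fit, with adjusted p of 0.019 for LIN28B and 0.021 to 0.022 for PRDM14. DPPA4 (833 and 745 CPM, log2 fold change 0.21) and UTF1 (308 and 460 CPM, -0.35) had unadjusted p of 0.021 and 0.049 and were not called, with adjusted p of 0.12 and 0.20. The value of UTF1 rested on single libraries: it was -0.67 without the second 5% O2 library and -0.09 without the first.

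The remaining 5 members had log2 fold changes at 5% O2 from -0.18 (LIN28A, 1322 and 1179 CPM) to 0.10 (POU5F1, 171 and 141 CPM). NANOG was at 172 and 157 CPM, its 2 highest libraries, with a log2 fold change of 0.09 (95% interval -0.11 to 0.29). SOX2 was at 253 and 283 CPM and SALL4 at 170 and 180 CPM, with log2 fold changes of -0.13 and -0.12.

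NAC and 5% O2 were also set against each other in KO cells, a comparison that shares libraries with those above and was added after the data were seen. With NAC, DPPA4 (log2 fold change 0.48) and ZFP42 (0.28) were higher than at 5% O2, and UTF1 (-0.60), NANOG (-0.40) and SALL4 (-0.39) were lower, with adjusted p from 0.0015 to 0.032 in edgeR. Over all genes, 15.5% were higher and 13.6% lower. NANOG thus differed between these libraries, at 132 and 117 CPM with NAC and 172 and 157 CPM at 5% O2. Time in culture may also differ between these groups and cannot be told apart from treatment. The ZFP42 difference was lost after removal of the length and GC trend (0.09, adjusted p = 0.44), as was that of UTF1 (-0.23, adjusted p = 0.21). UTF1 and SALL4 were not called without the second 5% O2 library (adjusted p = 0.23 and 0.085), nor was NANOG without the first (adjusted p = 0.058). ZFP42 was not called without the second 5% O2 library (0.20, adjusted p = 0.26), either untreated KO library (adjusted p = 0.066), the second NAC library (adjusted p = 0.071) or the second WT library (adjusted p = 0.053).

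Against WT cells, KO cells with NAC differed in 6 members, where 20.6% of genes were higher and 17.6% lower. DPPA4 (log2 fold change 0.53) and ZFP42 (0.52) were higher. UTF1 (-0.65), SALL4 (-0.46), SOX2 (-0.40) and PRDM14 (-0.29) were lower, with adjusted p from 0.0020 to 0.042 in edgeR. NANOG, at -0.11, was not called. With the length and GC trend removed, UTF1 (-0.18, adjusted p = 0.32), PRDM14 (-0.07, adjusted p = 0.66) and DPPA4 (0.18, adjusted p = 0.068) were no longer called and NANOG was called lower (-0.30, adjusted p = 0.016). This comparison joins genotype and treatment and cannot tell them apart. Without the first NAC library, PRDM14 was at -0.15 in place of -0.29. POU5F1 was then at -0.63 against WT and at -0.51 against 5% O2, with no replicate left in the NAC group. Without the first WT library, SALL4 alone of the 4 was called lower. PRDM14 was not called with only the 4 libraries compared (-0.29, adjusted p = 0.12 from edgeR). Its call was also lost with any 1 library left out other than the second NAC library, at -0.335 to -0.154.

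POU5F1 counts carry a further limit, because its transcript has near-identical copies. The gene lies on chromosome 6 at 31164337 to 31180731 (hg38, GENCODE v44, minus strand). Of the 31-base words of its canonical transcript, 1.6% occurred nowhere else in the genome sequences of the reference, 89.7% recurred on alternate-locus scaffolds and 82.3% on other primary sequences. Words unique to their own locus made up 41.4% for NANOG, 63.4% for LIN28A and 82.0 to 100% for the other 7 members, with UTF1 at 100%. The retrocopy POU5F1B held 21004 to 38375 counts, more than the 3301 to 7504 counts of POU5F1 itself, and the pseudogenes POU5F1P3 and POU5F1P4 held 6331 to 12311 and 5251 to 9468 counts. How the counts are shared between the gene and its copies is therefore uncertain, and so is the level of POU5F1 beside the other members.

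Summed with these copies, an alternative chosen after seeing the data, POU5F1 was at 1327 and 1626 CPM in WT, at 1266 and 1267 CPM in untreated KO cells, at 1603 and 1365 CPM at 5% O2 and at 1700 and 1199 CPM with NAC. The log2 fold changes of the sum were -0.22 in KO, 0.23 at 5% O2 and 0.20 with NAC, with adjusted p of 0.46, 0.37 and 0.31 in edgeR. The value with NAC had been -0.05 for the gene alone, and in the sum the second NAC library was the lowest and the first the highest of the 8. NANOG summed with the processed copy NANOGP8 had a log2 fold change of -0.32 with NAC (adjusted p = 0.014), against -0.31 alone.

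**Figure D4:**
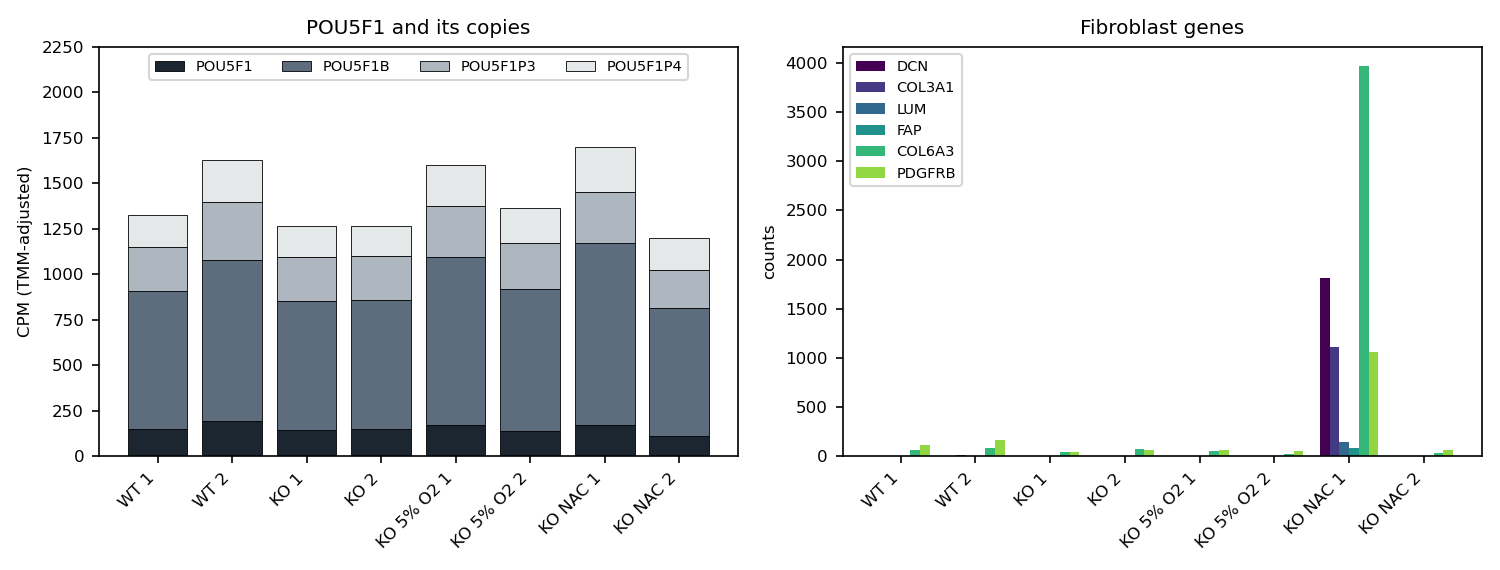
The left panel stacks TMM-adjusted CPM of POU5F1 and 3 of its copies per library, and the totals run from 1199 in the second NAC library to 1700 in the first. The right panel plots counts of 6 fibroblast genes per library, of which the first NAC library holds 1809 of DCN and 3965 of COL6A3.

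The other members lie on chromosome 12 at 7787794 to 7799146 (NANOG), chromosome 3 at 181711925 to 181714436 (SOX2) and 109326144 to 109337546 (DPPA4), chromosome 20 at 51782331 to 51802521 (SALL4), chromosome 8 at 70051651 to 70071693 (PRDM14), chromosome 10 at 133230217 to 133231558 (UTF1), chromosome 4 at 187995771 to 188005046 (ZFP42), chromosome 1 at 26410817 to 26429728 (LIN28A) and chromosome 6 at 104936616 to 105083332 (LIN28B), in GENCODE v44 on hg38. No exon of their canonical transcripts shared a base with an exon of another gene.

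Wider genes of the pluripotent state moved with NAC in both directions as the members did. Of 30 such genes tested, 6 were higher and 12 lower with NAC. Over all tested genes, 23.8% were higher and 20.8% lower with NAC, and 3.68% and 4.13% at 5% O2. These shares stand beside the lists that follow too. For the counts with NAC after removal of the length and GC trend, no share over all genes is given. None is given for the counts at an unadjusted p under 0.05 either, so both kinds of count are descriptions only. POLR3G, a subunit of RNA polymerase III, was at 220 and 214 CPM in untreated KO cells and at 412 and 418 CPM with NAC, and the surface proteins CD9 (log2 fold change 0.90) and EPCAM (0.76) were higher too. LEFTY1, an inhibitor of NODAL, was lower (-1.09), as were the DNA methyltransferase DNMT3B (-0.97, from 2553 and 2455 CPM to 1137 and 1418 CPM) and TRIM71 (-0.94). After removal of the length and GC trend, 5 were higher and 7 lower. At 5% O2, 6 were higher and 1 lower, led by LEFTY1, NODAL and GDF3. LEFTY1 was at 3.55 and 3.33 CPM at normal O2 and at 12.9 and 11.2 CPM at 5% O2 (log2 fold change 1.81), and the growth factors NODAL (1.13) and GDF3 (0.66) rose as well. LEFTY1 was thus higher at 5% O2 and lower with NAC than in untreated KO cells. In KO against WT, 0 of the 30 were called by edgeR (10 at an unadjusted p under 0.05) and 1 by DESeq2.

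Naive and primed markers give the kind of pluripotency. Of 11 naive-state genes tested, 0 were higher and 5 lower with NAC, among them TBX3 (log2 fold change -2.14), TFCP2L1 (-1.22) and KLF4 (-1.06). Of 14 primed-state genes, 3 were higher (HMX2, DUSP6 and CD24) and 6 lower, led by ZIC2 (-1.04), SALL2 (-0.79) and POU3F1 (-0.63). The lower primed genes numbered 2 after removal of the trend. At 5% O2, 1 naive and 1 primed gene (ZIC5, -0.42) were lower and 0 were higher. In KO against WT, the primed genes HMX2 (1.32) and POU3F1 (0.86) were higher and FZD7, a WNT receptor, was lower (-0.75), with 0 of 11 naive genes called by edgeR or DESeq2 and 1 at an unadjusted p under 0.05.

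Partners of the members included the NuRD complex that SALL4 recruits. Of 22 partner genes, 6 were higher and 11 lower with NAC, and 3 and 8 after removal of the trend. The NuRD deacetylase HDAC1 (log2 fold change 0.44) and its histone chaperone RBBP4 (0.43) were higher, while the NuRD helicase CHD4 was lower (-1.05, from 543 and 482 CPM to 249 and 246 CPM). EED, of the Polycomb complex that works with PRDM14, was higher (0.62), and the corepressor CBFA2T3 was lower (-1.45). TCF3 was lower with NAC (-0.93) and at 5% O2 (-0.39). It encodes E proteins and stands in the list under a name that TCF7L1 also carries, so it is no known partner. MTA1, of NuRD, was lower at 5% O2 (-0.40), and in KO against WT 0 of the 22 were called by edgeR (2 at an unadjusted p under 0.05) and 1 by DESeq2.

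Of 12 let-7 targets, the transcripts that LIN28 proteins guard, 1 was higher and 8 were lower with NAC. Over all tested genes 23.8% were higher and 20.8% lower. TRIM71 (-0.94, also in the wider list), IGF2BP1 (-0.82) and ARID3B (-0.77) fell most, and NRAS rose (0.82, from 136 and 133 CPM to 241 and 234 CPM). The lower ones numbered 3 after removal of the length and GC trend. At 5% O2, NRAS was higher (0.54) and ARID3B (-0.36) and TRIM71 (-0.32) were lower. In KO against WT 0 of 12 were called by edgeR or DESeq2, and 3 had an unadjusted p under 0.05. Among 17 relatives and copies of the members, 0 were higher and 8 lower with NAC, with SALL3 (-1.37), POU2F1 (-0.95) and SALL1 (-0.88) leading, and POU3F1 and SALL1 (0.56) were higher in KO against WT. SALL3 was lower at 5% O2 (-0.69).

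Without the first NAC library, the median log2 fold change with NAC was -0.305 over the 30 wider pluripotency genes (-0.183 with it). It was -0.824 over the 11 naive genes (-0.636 with it) and -0.245 over the 22 partners (-0.265 with it). For the 12 let-7 targets it was -0.425 (-0.355 with it). The primed genes had -0.101 (0.058 with it), where 1 more gene passed the filter. Among the relatives and copies, the median was -0.355 without that library (-0.285 with it). With the length and GC trend removed, 2 of 17 relatives and copies were higher and 6 lower. The 8 ectoderm markers had a median of -0.52 without that library (-0.889 with it).

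Markers of differentiated lineages were tested where they passed the filter. NES, an intermediate filament of neural progenitors, was at 266 and 226 CPM in WT, 451 and 422 CPM in KO, 212 and 287 CPM at 5% O2 and 126 and 129 CPM with NAC. It was higher in KO (log2 fold change 0.83) and lower with NAC (-1.78) and at 5% O2 (-0.81). OLIG3 was higher in KO (1.96) and lower with NAC (-1.33, 3.58 and 12.8 CPM), and GBX2 was lower with NAC (-0.85). These were the called genes of 8 ectoderm markers in these comparisons. Of 10 mesoderm markers, KDR was lower in KO (-0.80) and at 5% O2 (-0.40), and GATA2 (-2.13) and MIXL1 (-1.59) were lower with NAC. Of 6 endoderm markers 1 was higher with NAC and 1 at 5% O2, and of 6 trophoblast and amnion markers TFAP2C was lower with NAC (-0.58). Of 13 fibroblast markers, 6 were higher with NAC, led by COL6A3 at 3965 and 31 counts and PDGFRB at 1062 and 60 counts in the 2 NAC libraries. The median log2 fold change of the 13 with NAC was 1.328, and it was -0.025 without the first of these libraries.

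**Figure D5:**
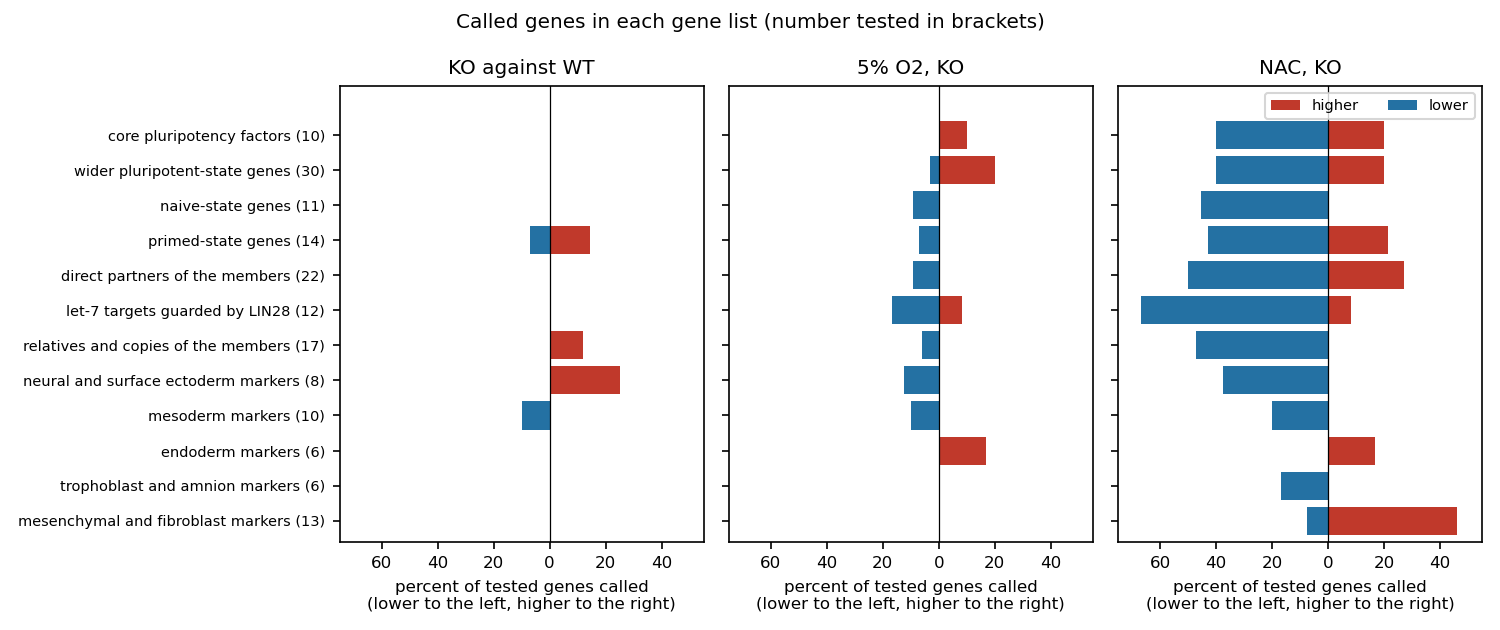
Bars give the percent of tested genes of each list that were called higher (right) or lower (left) at an adjusted p under 0.05, with the number tested in brackets, in 3 comparisons. Of the 10 factors, 0 are called in KO against WT, 1 is higher at 5% O2, and with NAC 4 are lower and 2 higher.

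For each called member, the genes nearest in pattern were found over the 8 libraries by the root mean square difference of centred log2 CPM, among 9936 genes. The nearest to DPPA4 were CCNB1IP1 (0.025) and CNBP (0.032), and to ZFP42 IMP3 (0.036) and HNRNPC (0.039). For SALL4 they were TTC7B (0.031) and KIAA1958 (0.032), and for PRDM14 ADNP (0.032) and PURB (0.042). NANOG had ARF3 (0.060) and its own copy NANOGP8 (0.065), whose sequence it shares. UTF1 was matched less closely, by MVB12B (0.086) and FAM53B (0.093). The 8 libraries share a normalization and their depths, and these likenesses are descriptions.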

How the data were processed

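Libraries were made with an Illumina TruSeq RNA kit. Per the labels and the study's methods, the authors checked reads with FastQC 0.11.9, trimmed them, mapped them to hg38 by HISAT2 and made counts for each gene symbol with default featureCounts. These deposited counts are not normalized, and the annotation behind them is not given in the sources used here. Default counting ignores strand and drops reads that match several places, so genes with copies can lose reads. Of 12 labelled samples, 8 had a column in the table. The WT libraries at 5% O2 and with NAC were not analysed here.

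After filterByExpr (minimum count 10) and TMM normalization, edgeR 4.0.16 (R 4.3.3) ran its quasi-likelihood test in 1 fit of 8 libraries in 4 groups with 4 residual degrees of freedom, no block, and Benjamini-Hochberg adjustment over 15916 genes. The biological coefficient of variation was 13.7%. Replicates differed by more than sampling noise (chi-square per degree of freedom 9.53 to 30.7). Members and gene lists were chosen with earlier results of these data known. Beyond the members, at most the 3 largest called changes per direction and list were named, where log2 CPM averaged 1 or more, and the 2 nearest genes in pattern. Lengths and GC content came from GENCODE v44 and were known for 96% of tested genes. The trend was fitted with mgcv 1.9.3. Alternatives were DESeq2 1.42.0, other normalizations, filters, a replicate block, the compared libraries alone, a stricter threshold, and each library left out. A fit with a library left out has no replicate in that group, so its p-values and calls hold no spread within it. The tests were checked on simulated counts.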

Additional observations from a re-analysis of the deposited data

How the results depend on the processing

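Of 910 log2 fold changes of single members under other settings, 820 kept direction and side of the threshold, 40 fell short of it, 34 newly passed it and 16 changed sign. In KO against WT, the count of members higher went from 0 to 1 (UTF1) with no filter on low counts. At 5% O2, 2 were higher and 1 lower with DESeq2, with no filter and with only the 4 libraries compared, in place of 1 and 0, and 0 were higher with the length and GC trend removed or at an adjusted p under 0.01. With NAC against 5% O2, 1 in place of 2 was higher with upper quartile normalization, the trend removed, only the 4 libraries or an adjusted p under 0.01, and in KO with NAC against WT 1 in place of 2 with the trend removed. With each library left out, members higher and lower ranged from 0 to 0 and 0 to 0 in KO against WT, 2 to 3 and 3 to 5 with NAC, 0 to 2 and 0 to 1 at 5% O2, 1 to 2 and 1 to 4 with NAC against 5% O2, and 2 to 3 and 1 to 4 in KO with NAC against WT. The cause of these shifts was not tested.

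Sign changes, each without a call in that setting, touched LIN28A in KO against WT (-0.020 with the trend removed), LIN28B with NAC (-0.064 with the trend removed), POU5F1 with NAC (0.195 summed with copies) and NANOG at 5% O2 (-0.005 with the trend removed). With a library left out, log2 fold changes in KO against WT ranged from -0.041 to 0.114 for LIN28A (-0.010 without the first KO library), from -0.100 to 0.184 for LIN28B and from -0.012 to 0.107 for SALL4 (-0.005 without the first KO library). With NAC they ranged from -0.250 to 0.411 for LIN28A and from -0.402 to 0.235 for POU5F1, and at 5% O2 from -0.040 to 0.235 for POU5F1. With NAC against 5% O2 they ranged from -0.075 to 0.586 for LIN28A and -0.507 to 0.130 for POU5F1, and in KO with NAC against WT from -0.217 to 0.446 and -0.634 to 0.003.

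Over all genes, 29 to 826 were higher and 34 to 485 lower in KO against WT, 2634 to 4070 and 2079 to 3539 with NAC, 29 to 1466 and 5 to 1543 at 5% O2, 637 to 2900 and 717 to 2568 with NAC against 5% O2, and 1969 to 3507 and 1567 to 3105 in KO with NAC against WT. With the length and GC trend removed, 138 were higher and 104 lower in KO against WT, and 379 and 159 at 5% O2. DESeq2 called 545 higher and 315 lower in KO against WT, and 1081 and 1063 at 5% O2. Replicates with the same number did not deviate together over all genes (correlations of -0.0226 to 0.0816). This cannot show whether they share a clone or a culture, since noise within single libraries also lowers such correlations. With the replicate block, 5 in place of 4 members were lower with NAC (SOX2, adjusted p = 0.040) and 2 were higher. Per-length levels moved with the canonical transcript for NANOG, LIN28B, SALL4, DPPA4 and PRDM14. With 2 libraries per group, small changes can be missed.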
